A study of Mus musculus with 21 samples.

Results

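B cells were picked out of single-cell RNA sequencing of melanoma lung metastases, primary melanomas and unchallenged mouse lungs. The cells were chosen by their own measured counts. A cell was counted as a B cell when it held at least 1 UMI, a molecule of mRNA counted once by its barcode, of 3 or more of *Cd79a*, *Cd79b*, *Ighm*, *Ms4a1* and *Igkc*, with *Cd79a* or *Ms4a1* among them. Cells with a UMI of *Trac*, *Nkg7*, *C1qa*, *S100a8*, *Col1a2* or *Pecam1* were left out, because these genes mark T cells, NK cells, macrophages, neutrophils, fibroblasts and endothelial cells. This gave 553 B cells among 51511 cells of the tumor microenvironment and of unchallenged lung, out of 100359 cells in all when each deposited cell was counted once. Of the 553, 501 came from unchallenged lung, 48 from lung metastases and 4 from primary tumors. They held between 887 and 13056 UMIs each, with a median of 1802.

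The tumor-bearing mice were mT/mG animals, in which every host cell carries the membrane tdTomato reporter and no Cre was used. They were young adults of both sexes that received subcutaneous fragments of the MT-ret melanoma, grown before in mice and unlabeled. The primary tumor was resected, and lung metastases were taken later. Unchallenged lungs came from mice without tumor. Dissociated cells were frozen, thawed and sorted as living tdTomato+ cells, in some libraries with an added removal of CD45+ cells, and the sources do not tie the gates to single libraries. B cells carry CD45, so the gate bears on every count of B cells. Cells with a *Ptprc* UMI, the gene of CD45, made up 0.0839% to 80.4% of a library. The deposited table holds several libraries under more than 1 name with identical cells, and each was used once. This left 12 libraries, namely 4 of the lung metastasis microenvironment, 4 of the primary tumor microenvironment and 4 of unchallenged lung. Replicate 1-3 of the metastases and of the primary tumors joins several mice as labelled. The cells of metastasis replicate 6 also stand under the name of a melanoma cell library. The name of an unchallenged lung library marked run 1 carries a replicate number that no label of the group has, and it is called run 1. Barcodes shared between libraries came to at most 1.47% of the smaller one.

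B cells recognize antigen through the B cell receptor, a membrane immunoglobulin of 2 heavy and 2 light chains held by the CD79A and CD79B signalling chains. A resting B cell makes IgM and IgD from the same rearranged heavy chain gene and uses either a kappa or a lambda light chain. It takes up the bound antigen and shows peptides of it on MHC class II to T helper cells, and B cells recirculate through blood, lung and lymphoid organs by way of adhesion and chemokine receptors. After activation, they can enter germinal centers, switch to IgG, IgE or IgA, or become plasma cells.

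Transcription of the MHC class II genes is controlled through a conserved promoter module that ends in a Y box, the reversed CCAAT box, and many B cell promoters hold an octamer bound by the OCT factors and their partner encoded by *Pou2af1*. The 120 bases before the start site of 3 MHC class II genes are given here, since these genes are described below, together with that of *Vpreb3*, a gene of the B cell identity list. They are RefSeq promoters of GRCm38.p6, written 5′ to 3′ on the strand of the gene, and capitals mark the motif.
H2-Aa, chr17:34287824-34287943, minus strand: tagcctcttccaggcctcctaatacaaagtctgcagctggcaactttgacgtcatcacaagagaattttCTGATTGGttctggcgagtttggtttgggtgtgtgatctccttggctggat
H2-Eb1, chr17:34305747-34305866, plus strand: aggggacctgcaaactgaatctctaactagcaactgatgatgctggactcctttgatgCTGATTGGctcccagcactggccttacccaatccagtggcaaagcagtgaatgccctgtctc
H2-Oa, chr17:34092259-34092378, plus strand: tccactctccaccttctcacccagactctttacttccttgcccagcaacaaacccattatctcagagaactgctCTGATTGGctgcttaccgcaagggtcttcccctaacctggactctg
Vpreb3, chr10:75948180-75948299, plus strand: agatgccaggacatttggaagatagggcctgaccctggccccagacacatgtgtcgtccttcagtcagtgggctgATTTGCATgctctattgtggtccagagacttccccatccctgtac
The Y box was searched as CTGATTGG on both strands in windows from 250 bases before to 50 bases after each start, and the letters contain the reversed CCAAT. It stood in 3 of the 7 listed MHC class II genes that had an entry, and in 4.10% of all 32851 promoter windows. The octamer ATGCAAAT, which lies on the other strand in *Vpreb3*, stood in 3 of 28 genes of the B cell identity and receptor signalling lists, namely *Blnk*, *Prkcb* and *Vpreb3*, and in 1.74% of all windows. A match is a description of the letters only.

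The cells were checked against 20 genes of B cell identity that the rule did not use, among them the transcription factors *Pax5* and *Ebf1* and the inhibitory receptor *Cd22*. UMIs of these genes made up 87.3 and 103 per 10000 UMIs in the B cells of metastasis replicates 1-3 and 4. They made up 136, 108, 92.1 and 33.0 per 10000 in unchallenged lung run 1 and replicates 4, 5 and 6, and 167 in the 4 cells of the primary tumor. All other cells without the marker combination stood between 2.88 and 9.56 per 10000 in the same 8 libraries. In each of the 8 libraries the B cells were thus above the other cells, the single B cell of metastasis replicate 6 included at 92.8. Lung replicate 6 was lowest, and its members held more RNA of macrophages, at 78.0 per 10000, than of B cell identity. There, a median of 4 identity genes was detected per cell against 9 to 12 in the other 5 libraries with at least 10 B cells. In that library 9 of 294 members had no identity UMI.

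**Figure D1:**
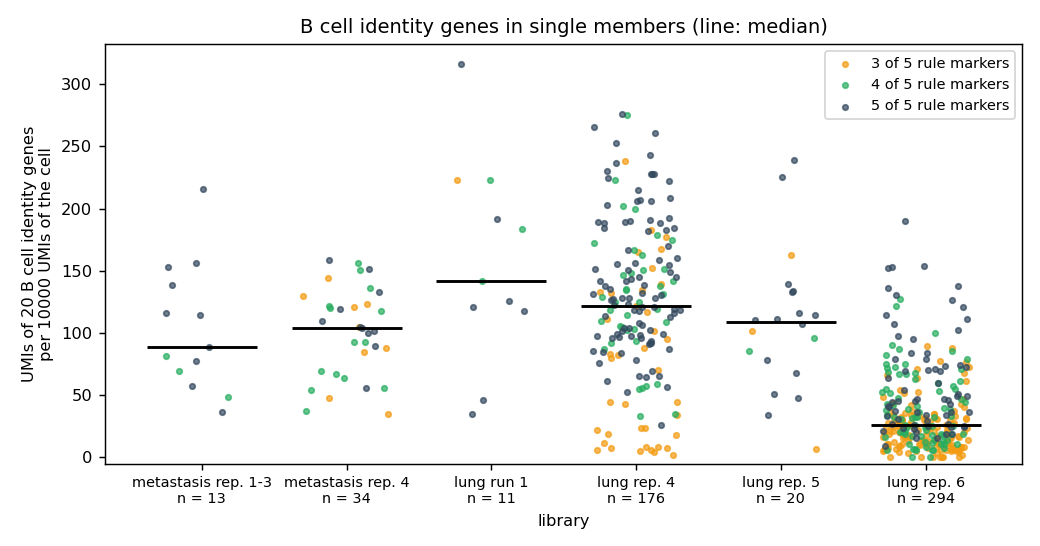
Each point is a B cell, placed by library on the horizontal axis and by its UMIs of 20 B cell identity genes per 10000 UMIs on the vertical axis, with color giving how many of the 5 rule markers it held and the black line the median of the library. The median was 26.1 in lung replicate 6 and 89.0 to 141 in the other libraries, and cells near 0 were mostly cells with 3 markers.

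In lung replicates 4 and 6, members with fewer markers held less B cell and more macrophage RNA. There were 197 members with exactly 3 markers, 147 with 4 and 209 with all 5. In lung replicate 4, the 39 cells with 3 markers had 29.5 identity UMIs per 10000 and 208 of a macrophage list of 10 genes led there by *Lyz2*. The 137 cells with 4 or 5 markers had 132 and 9.51. In lung replicate 6, the macrophage list stood at 98.8 per 10000 in the 145 cells with 3 markers and at 58.1 in the other 149. There, identity stood at 19.8 and 45.7. In lung replicate 6 even the 83 cells with 4 markers held 76.8 macrophage and 33.2 identity UMIs per 10000. Metastasis replicate 4 did not show this, as its 9 cells with 3 markers had 96.3 identity and 6.30 macrophage UMIs per 10000, beside 97.8 and 10.1 in its 14 cells with 4. RNA of lung epithelium was also present in some libraries. A club cell list, led by the secretoglobin *Scgb1a1*, made up 248 per 10000 in lung replicate 6, 28.7 in replicate 5 and 0.0995 to 3.54 in the other 4 libraries with 10 or more B cells. The alveolar type 2 list made up 137 in lung replicate 5 and 38.9 in replicate 6. In replicate 5 a single cell held 923 of the 944 UMIs of *Sftpc*, a gene of that list, so the value is not one of its B cells in general. Of the markers that define these cells, *C1qa*, *S100a8*, *Col1a2*, *Pecam1*, *Trac* and *Nkg7* were at 0 in every member by the rule. The part of this RNA in the results below was not tested beyond the stricter marker rules given there.

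In lung replicate 6, 102 cells with 2 markers and no excluded gene held 14.9 identity UMIs per 10000, close to its members with 3. At the edge of the rule over all libraries, 157 cells of that kind held 19.1 identity UMIs per 10000, against 28.8 in the 197 members with 3. The exclusion of *Pecam1*, the adhesion molecule CD31, was the step that took away most B cell RNA. It alone removed 385 cells with the marker combination, and these had 102 identity UMIs per 10000, above the 79.8 of the members. In metastasis replicate 4, 25 such cells held 0.149 UMIs per 10000 of the other endothelial genes, whereas 217 such cells of lung replicate 4 held 16.6. Of those 217 cells, 140 had no UMI of the other endothelial genes and 170 had at most 1. *S100a8* alone removed 661 cells, 649 of them in lung replicate 6, at 25.3 identity UMIs per 10000. Within lung replicate 6 the removed cells held 25.0, against 33.0 in its members. After thinning, *S100a8* was in 45.9% of the endothelial cells of that library. The rule kept 17.9% of its cells with the marker combination, and 37.5% to 57.9% in the other lungs. The part of this step in its shares of B cells was not tested. In all, 2287 cells had the marker combination and 24.2% of them were kept. No doublet caller was run.

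B cells were found in 8 of the 12 libraries. They made up 5.14% of the cells of metastasis replicate 4, with an exact 95% interval of 3.59% to 7.11%, and 4.31% of lung replicate 4, with 3.71% to 4.98%. They made up 1.66% of metastasis replicate 1-3, 1.13% of lung replicate 6, 0.830% of lung run 1, 0.599% of primary tumor replicate 1-3 and 0.333% of lung replicate 5. Metastasis replicate 6 held 1 B cell among 1036 cells. Metastasis replicate 5 held 0 among 5166 cells, which at 3 counts of the total allows a share of up to 0.0581%, and 2.26% of its cells had a *Ptprc* UMI. Primary tumor replicates 4, 5 and 6 also held 0, which allows up to 0.0961%, 0.990% and 0.126%. In primary tumor replicate 4 this was at 77.5% of cells with a *Ptprc* UMI, while replicates 5 and 6 were at 0.660% and 0.0839%. All intervals and limits cover counting error only. When cells with *Pecam1* were kept, which was tried after seeing the data, metastasis replicate 4 held 8.93% and lung replicate 4 9.62%, so the order of the highest libraries turned.

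**Figure D2:**
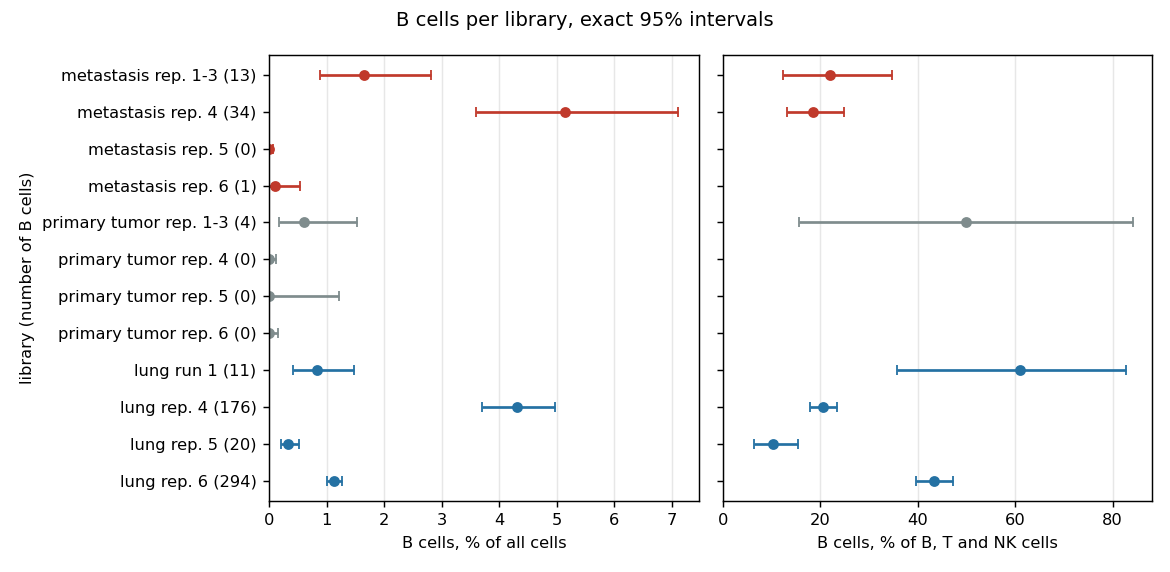
Points give the B cells of each library as a percent of all cells (left) and of B, T and NK cells together (right, libraries with at least 8 such cells), with exact 95% intervals as bars and the number of B cells in parentheses. Red is metastasis, gray primary tumor and blue unchallenged lung, and the values of metastasis and lung overlap in both panels.

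B cells were also set against T and NK cells, which carry CD45 as well. How the removal of CD45+ cells bears on this share was not tested. T cells were taken as cells with at least 2 T cell receptor or CD3 genes, and NK cells as cells with at least 3 cytotoxic or NK receptor genes. Both left out cells with a UMI of *Cd79a*, *Ms4a1*, *C1qa*, *S100a8*, *Col1a2* or *Pecam1*. NK cells also left out those with *Trac* or a CD3 gene. B cells made up 22.0% and 18.5% of these lymphocytes in metastasis replicates 1-3 and 4. They made up 20.5%, 10.4% and 43.4% in lung replicates 4, 5 and 6, the lung libraries with at least 30 lymphocytes. Both metastasis values lay inside the range of the lungs. The means were 20.3% ± 2.51 (SD, n = 2) and 24.7% ± 16.9 (SD, n = 3), and the difference of -4.49 percentage points was within the spread between libraries (exact two-sided permutation test, p = 0.9, where 0.1 is the smallest p this design allows). Without lung replicate 6 the difference turned to 4.82 points. Within the runs that the library names give, of a kind they do not state, run 1 gave 22.0% in metastasis and 61.1% in lung, from 18 lung lymphocytes, and run 2 gave 18.5% and 20.5%. The 43.4% of lung replicate 6 moved with the rule. It was 28.0% with 4 of 5 markers and 60.1% with at most 1 UMI of the excluded genes. Both metastasis values stayed inside the range of the lungs under either rule.

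Among genes outside the rule, those that stood highest in B cells over all other cells of the same library were the lambda constant genes *Iglc2*, *Iglc1* and *Iglc3*, the lymphocyte antigen *Ly6d*, *Ebf1*, the IgM Fc receptor *Fcmr*, *Ighd*, *Pax5*, the adaptor *Bank1* and *Siglecg*. They were followed by *Fcer2a*, which encodes CD23, *Fcrla*, *Pou2af1*, *H2-DMb2* and *Spib*. Their mean log2 ratio, taken on CPM (UMIs of the gene scaled to a common total of UMIs, the usual counts-per-1000000 unit) with a pseudocount of 10 CPM, ran from 4.84 for *Iglc2* to 3.30 for *Spib* over the lung replicates 4 and 6, the only libraries with at least 50 B cells. *Ebf1* stood at 1482 CPM in the B cells of lung replicate 4 and at 32.8 CPM in the other cells. In lung replicate 6 it stood at 347 and 25.3 CPM. These ratios follow from the choice of the cells and are a description.

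Genes of the receptor were counted first. *Ighm* had a UMI in 521 of the 553 cells, *Igkc* in 477, *Cd79a* in 466, *Ms4a1*, which encodes CD20, in 384 and *Cd79b* in 376, as the rule requires of most. *Igkc* RNA was also found outside the B cells, in 0.134% to 12.5% of the endothelial cells of the 6 libraries with at least 10 B cells, after each cell was thinned to 1000 UMIs. *Ighd* is the heavy chain exon set of IgD and was not used by the rule. After thinning, it had a UMI in 30.8% and 61.8% of the B cells of metastasis replicates 1-3 and 4, and in 50%, 42.1%, 31.6% and 20.4% of those of lung run 1 and replicates 4, 5 and 6. Without thinning these were 53.8%, 79.4%, 81.8%, 64.2%, 60% and 28.6%. The endothelial cells of these libraries, after thinning, stood between 0 and 1.92%, so *Ighd* was above that background in each library. Metastasis and lung overlapped.

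Switched heavy chains were rare among the cells kept. *Ighm* is a marker of the rule, so a switched cell without it enters less easily than a cell with IgM. *Ighg1* and *Ighe* had 0 UMIs in all 553 cells, and *Ighg2b*, *Ighg2c* and *Ighg3* had 1 to 8 UMIs in any library in which they were seen at all. *Igha*, the IgA heavy chain, had UMIs in 1 of 13 and 7 of 34 metastasis B cells and in 0 of 11, 3 of 176, 1 of 20 and 42 of 294 lung B cells, but only 5 cells held 5 or more. After thinning, *Igha* was in 7.17% of the B cells and in 4.81% of the endothelial cells of lung replicate 6, and in metastasis replicate 4 it was in 11.8% and 0.962%. The gap to other cells as a whole was smaller in metastasis replicate 4, at 20.6% of B cells and 7.64% of other cells without thinning. In lung replicate 6 these were 14.3% and 9.16%. A single cell of lung replicate 4 held 425 *Igha*, 250 *Jchain* and 3175 *Igkc* UMIs, with 1 *Ighm* and 0 *Ighd*. *Jchain* encodes the joining chain of secreted IgA and IgM. That cell held 37.8% of all *Igkc* UMIs of the B cells of its library and 41.5% of its own UMIs were *Igkc*. Without it, *Igkc* of lung replicate 4 went from 11933 to 7503 CPM. In lung replicate 6, *Jchain* was in 14 of 294 B cells, and 3 of these held 5 or more UMIs of it. A cell there held 29 *Jchain*, 108 *Ighm* and 134 *Igkc* UMIs, with 0 *Igha* and 0 *Ighd*.

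Each B cell was called kappa or lambda by the class with more constant region UMIs. Many cells held UMIs of both classes, 13 of 13 and 19 of 34 in metastasis replicates 1-3 and 4 and 6 of 11, 108 of 176, 16 of 20 and 133 of 294 in lung run 1 and replicates 4, 5 and 6. Lambda cells were 4 of 13 and 8 of 33 in metastasis replicates 1-3 and 4, which is 30.8% and 24.2%. They were 2 of 11, 20 of 162, 3 of 17 and 47 of 241 in lung run 1 and replicates 4, 5 and 6, which is 18.2%, 12.3%, 17.6% and 19.5%. Both metastasis shares lay above all 4 lung shares. The means were 27.5% ± 4.62 (SD, n = 2) and 16.9% ± 3.15 (SD, n = 4), a difference of 10.6 percentage points. This is given as a description, since *Igkc* is a marker of the rule and a kappa cell enters more easily than a lambda cell. With *Igkc* left out of the rule, the shares were 30.8% in both metastasis libraries and 20%, 14.3%, 18.8% and 26.0% in the lungs, so both metastasis shares were still above the lung shares (exact two-sided permutation test, p = 0.0667, the smallest p this design allows). With *Igkc* left out of the rule, the order also held within run 1, at 30.8% and 20%, and within run 2, at 30.8% and 14.3%. The exact intervals of the single libraries were wide, 9.09% to 61.4% for metastasis replicate 1-3, and overlapped. With at least 2 UMIs and 5 times those of the other class, 4 and 13 metastasis cells were left and the difference turned to -14.7 points.

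**Figure D3:**
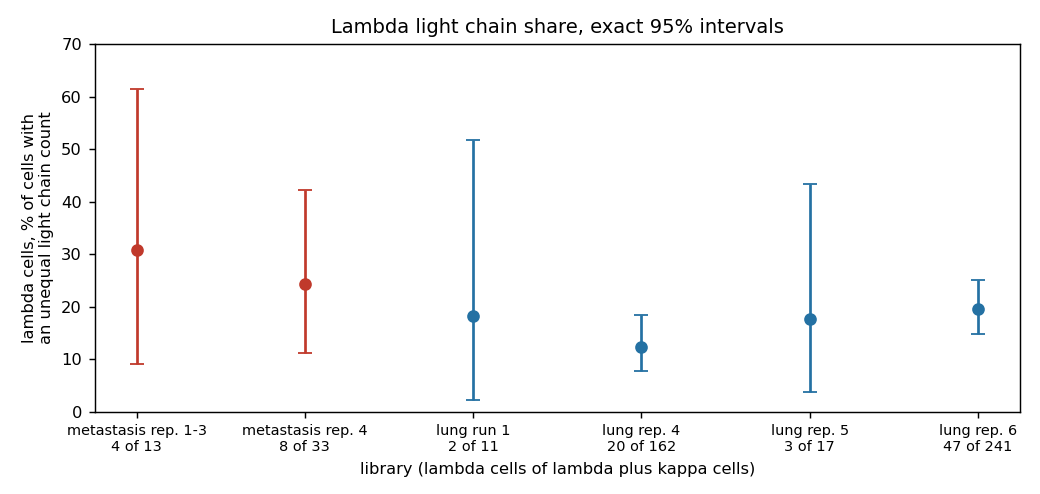
Points show lambda cells as a percent of the B cells with unequal kappa and lambda counts in each library, with exact 95% intervals as bars. Red is metastasis and blue unchallenged lung, and the 2 red points at 30.8% and 24.2% lie above the blue points, all bars overlapping.

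Variable region genes gave few UMIs in these libraries, which read the end of the transcript away from the variable region. There were 284 UMIs of 101 variable genes in 139 cells. The most counted was *Igkv3-2* with 35 UMIs, of which 34 came from 1 cell. It was followed by *Iglv1* with 16 UMIs in 12 cells, *Igkv12-44* with 11 and *Ighv1-26* with 10, and then by *Igkv12-46*, *Ighv14-2*, *Ighv3-6* and *Iglv3* with 8 each. Of these 8, *Iglv1* was in the most cells, and *Igkv3-2* was in 2.

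MHC class II shows peptides to T helper cells. The 10 listed genes comprise the alpha and beta chains *H2-Aa*, *H2-Ab1* and *H2-Eb1*, the peptide exchange factors *H2-DMa*, *H2-DMb1* and *H2-DMb2*, their modulators *H2-Oa* and *H2-Ob*, the invariant chain *Cd74* and the transactivator *Ciita*. They made up 169 and 129 UMIs per 10000 in the B cells of metastasis replicates 1-3 and 4, and 267, 174, 111 and 74.3 in those of lung run 1 and replicates 4, 5 and 6. T cells and NK cells of the same libraries stood at 1.64 to 22.9. Macrophages with *C1q* genes stood at 154 in metastasis replicate 1-3 and at 204 to 723 in the lungs. *H2-DMb2* and *H2-Ob* had another order, with 1.04 to 6.00 and 0.885 to 4.68 per 10000 in B cells against 0.0678 to 0.541 and 0.111 to 0.338 in the macrophages. Between metastasis and lung the B cells did not stand apart for any of the 10 genes.

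**Figure D4:**
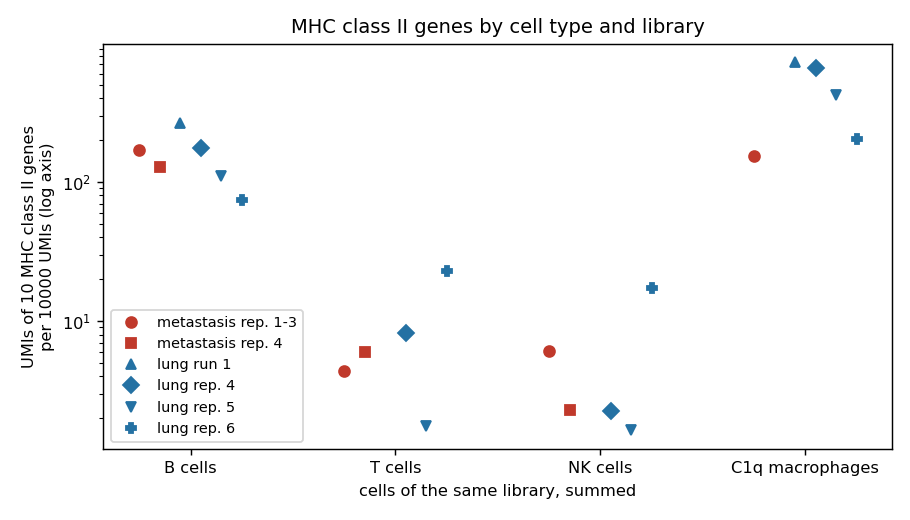
UMIs of 10 MHC class II genes per 10000 UMIs (log axis) are shown for B cells, T cells, NK cells and C1q macrophages, summed in each library, with a marker shape per library. In every library with all 3 lymphocyte types the B cells lie above T and NK cells, and red metastasis points at 129 and 169 lie inside the range of the blue lung points.

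The homing and recirculation list of 13 genes also holds *Fcer2a* and *Cd55*, which are not homing receptors. In metastasis replicate 1-3 these had 7 and 31 UMIs. The list stood at 30.7 and 36.2 UMIs per 10000 in the B cells of metastasis replicates 1-3 and 4. It stood at 31.5, 34.9, 33.7 and 19.4 in those of lung run 1 and replicates 4, 5 and 6. Other cells of these libraries stood at 9.58 to 28.0, and in lung replicates 4 and 6 they were close to the B cells, at 28.0 and 16.3. *S1pr1*, the receptor that directs exit into blood and lymph, stood at 201 and 331 CPM in the metastasis libraries and at 130, 149, 214 and 129 in lung run 1 and replicates 4, 5 and 6. *Klf2*, a transcription factor of quiescent recirculating lymphocytes, stood at 718 and 811 CPM against 1410, 1054, 941 and 533. The groups overlapped for both genes. *Cxcr5*, the receptor for the follicle chemokine CXCL13, was seen in 0 of 13 and 7 of 34 metastasis cells and in 1 of 11, 38 of 176, 3 of 20 and 25 of 294 lung cells.

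Markers of marginal zone and B-1 cells were scattered. *Cr2*, which encodes the complement receptor CD21, was in 19 of 34 cells of metastasis replicate 4 and in 2 of 13 of replicate 1-3, and in 4 of 11, 51 of 176, 4 of 20 and 36 of 294 lung cells. *Fcer2a*, a marker of follicular B cells, was in 16 of 34, 5 of 13, 7 of 11, 80 of 176, 4 of 20 and 37 of 294 in the same order. *Cd5* was in 4 cells each of lung replicates 4 and 6 and in none of the other libraries with 10 or more B cells, and *Zbtb32* in 1 and 4 cells of those same lungs. In the same order, *Cd9* was in 4 of 34, 4 of 13, 0 of 11, 18 of 176, 5 of 20 and 140 of 294. *Bhlhe41* was in 2 of 34, 0 of 13, 0 of 11, 7 of 176, 1 of 20 and 40 of 294. Lung replicate 6, with 294 members, was the library with the most macrophage and club cell RNA among members.

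Genes of the germinal center, where activated B cells divide and are selected, were rare. *Rgs13* and *Gcsam* had 0 UMIs in the 6 libraries with 10 or more B cells. The proliferation gene *Mki67* was in 1 of 34 metastasis cells and 13 of 294 cells of lung replicate 6. *Il10* and *Il6* had 0 UMIs in these libraries, whereas *Ltb*, the membrane lymphotoxin that shapes lymphoid tissue, was in 10 of 13 and 26 of 34 metastasis cells and in 7 of 11, 111 of 176, 13 of 20 and 73 of 294 lung cells. The survival receptor gene *Tnfrsf13c*, which encodes the BAFF receptor, was in 5 of 13, 9 of 34, 7 of 11, 61 of 176, 10 of 20 and 32 of 294 cells.

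A cell of lung replicate 5 carried the genes of a B cell precursor. It held 33 UMIs of *Vpreb1* and 15 of *Igll1*, the surrogate light chain, 7 of *Rag1*, 1 of *Rag2* and 5 of *Dntt*, which act in receptor gene assembly, with 21 *Ighm* and 0 *Igkc* and *Ighd*. A primary tumor cell held 4 *Rag1* UMIs beside 26 of *Ebf1* and 11 of *Ighm*. Both are single cells.

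The tissue comparison asked which genes of B cells differed between lung metastases and unchallenged lungs. Counts were summed over the B cells of each library and compared between the 2 metastasis libraries and the 4 lung libraries with at least 10 B cells. By the library names, metastasis replicate 1-3 shares run 1 with a lung library, and both replicates 4 are of run 2. Lung replicates 5 and 6 are of run 3, from which no metastasis library entered. Run and tissue can therefore not be fully told apart in these values. The primary tumors, with 4 B cells in 1 library, entered no test. A single cell of lung run 1 held nearly all of its 5444 globin UMIs, which are red blood cell genes and made up 1419 per 10000 UMIs of the B cells there, so the CPM values of that library are lower throughout. The labels and the study do not say whether libraries of a tissue are separate litters or cages, and p-values measure the spread between these libraries.

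Of 1752 genes tested, 1 was called, and 132 had an unadjusted p under 0.05 (edgeR quasi-likelihood test, adjusted p under 0.05 by Benjamini-Hochberg, 0.0571% of the genes tested). DESeq2 also called 1, with 77 under 0.05 unadjusted. The called gene was *Dct*, which encodes the melanin synthesis enzyme dopachrome tautomerase and is a marker of the melanoma. It had 17 UMIs in 10 of 13 and 77 UMIs in 28 of 34 metastasis B cells, with at most 3 and 7 in a cell, and 0 UMIs in all 501 lung B cells. This was at least 226-fold higher in replicate 1-3 and at least 408-fold higher in replicate 4 against a floor of 3 counts over all lung B cells (adjusted p = 0.00217, edgeR). *Dct* was also present in other cells of those libraries, at 3.17 and 4.83 UMIs per 10000 in T cells, 2.10 and 3.63 in NK cells and 6.09 and 6.90 in all cells without the B cell markers, beside 4.88 and 8.79 in the B cells. The melanoma list of 7 genes stood at 6.32 and 10.6 per 10000 in the metastasis B cells and at 0 to 0.0708 in the lung ones. The part of melanoma RNA from outside the B cells was not tested. When either metastasis library was left out, 0 genes were called, in fits where the lone metastasis library is assumed to vary like the lungs. On simulated counts of these libraries the test recovered 1% of 2-fold changes, 65.5% at a log2 change of 2 and 86.5% at 3, so differences of the size described next were mostly below what it could call.

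Of the 20 B cell identity genes, 0 were called, 12 were higher and 8 lower in metastasis, and the median log2 difference was 0.26, beside 0.01 over all genes tested. The median turned to -0.12 with 4 of 5 markers, -0.02 with the run of the library name as a block and -0.40 without metastasis replicate 4. The metastasis and lung libraries did not overlap for 3 of the 20, all higher in metastasis, where 11.1% of all genes tested did the same and 5.14% the reverse. With the globin genes left out of the totals, this was 2 of the 20, beside 9.99% of all genes. *Cd180*, an LPS-related receptor of B cells, stood at 230 and 228 CPM in the metastasis libraries and at 26.1 to 119 in the 4 lung libraries. Its log2 difference was 1.28 (SE 0.44, adjusted p = 0.611, edgeR). *Ikzf3*, which encodes the transcription factor Aiolos, stood at 546 and 548 CPM against 287, 301, 226 and 92.0, with a log2 difference of 1.25 (SE 0.46, adjusted p = 0.611, edgeR). *Pou2af1* was the smallest of the 3, at 316 and 297 CPM against 261, 216, 238 and 93.8. Without the globin genes *Pou2af1* stood at 304 CPM in lung run 1, above metastasis replicate 4, and only *Cd180* and *Ikzf3* still stood apart. In *Ikzf3* and *Pou2af1* lung replicate 6 was the lowest.

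Of the 15 genes of B cell receptor signalling, 12 were tested and 0 called, with 7 higher and 5 lower and a median of 0.13. The libraries did not overlap for *Btk*, *Malt1* and *Inpp5d*, which is 3 of 12, all higher in metastasis, beside the 11.1% of all genes tested. *Malt1*, the protease of the complex that carries the signal to NF-kappaB, stood at 661 and 548 CPM against 287, 308, 262 and 184, a log2 difference of 1.13 (SE 0.35, adjusted p = 0.611, edgeR). *Btk*, the kinase downstream of the receptor, stood at 287 and 206 CPM against 130, 128, 83.4 and 92.0, a log2 difference of 1.06 (SE 0.41, adjusted p = 0.611, edgeR). *Inpp5d*, which encodes the inhibitory phosphatase SHIP1, stood at 172 and 240 CPM against 78.2, 141, 131 and 112. For *Malt1* the lowest metastasis value was well above the highest lung value, and for *Inpp5d* the gap was small. The kinases *Lyn* and *Syk* and the adaptor *Blnk* overlapped between the tissues.

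**Figure D5:**
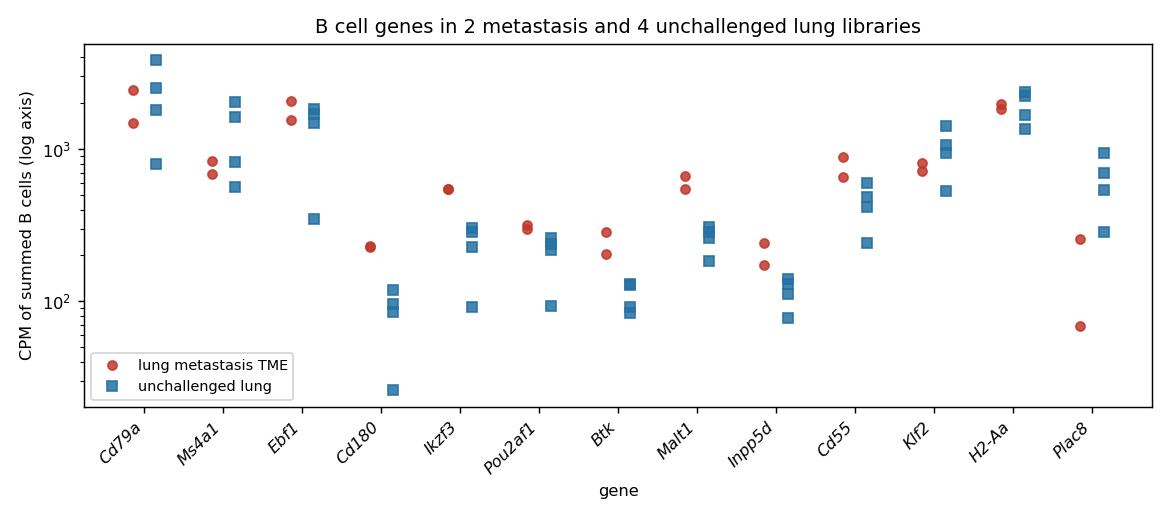
Each point is the CPM (log axis) of a gene in the summed B cells of a library, with red circles for the 2 metastasis and blue squares for the 4 lung libraries. *Cd180*, *Ikzf3*, *Malt1*, *Btk* and *Inpp5d* were higher in both metastasis libraries, as were 11.1% of all genes tested, and *Plac8* was lower, as were 5.14%, with none of these called, while *Cd79a*, *Ms4a1* and *H2-Aa* overlapped.

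No gene of the other B cell lists was called either. All 10 MHC class II genes were tested, with 4 higher, 6 lower and a median of -0.07. Of the 13 genes of the homing list 8 were tested, with a median of 0.40. The median turned to -0.10 with 4 of 5 markers and to -0.09 without metastasis replicate 4. *Cd55*, a complement decay factor in that list, stood apart at 890 and 651 CPM against 417, 482, 595 and 242. It was 1 of 8, beside 11.1% of all genes tested. Of 13 marginal zone and B-1 genes 6 were tested, with a median of -0.45. *Plac8* stood apart there, as 1 of 6 beside 5.14% of all genes tested, at 258 and 68.5 CPM against 287, 941, 536 and 699, with a log2 difference of -2.23 (SE 0.62, adjusted p = 0.611, edgeR). *Plac8* is also high in monocytes, and *Lyz2* stood at 747 and 126 CPM in the same metastasis libraries and at 78.2, 4464, 5240 and 4186 in the lungs. The macrophage part in the *Plac8* value was not tested.

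Genes of the response to stress and stimulation mostly overlapped. Of 15 immediate early and heat shock genes, which can rise during dissociation, 14 were tested, with 6 higher, 8 lower and a median of -0.12. *Klf6* stood at 230 and 206 CPM against 209, 324, 429 and 326, and stood apart, lower in metastasis, with the globin genes left out of the totals, as 1 of 14 beside 6.45% of all genes tested. *Fosb* alone ran from 201 to 1336 CPM between the 2 metastasis libraries. Of 17 interferon-stimulated genes 4 were tested, all lower in metastasis with a median of -0.82 and 0 called. *Ifi27l2a* stood at 1263 and 34.3 CPM in the 2 metastasis libraries and at 1356, 1344, 322 and 315 in the lungs, so the spread within metastasis was as wide as any between tissues. Of 14 activation genes 3 were tested, namely *Cd69*, *Nr4a1* and *Egr1*, with a median of -0.98. Of 9 survival genes 5 were tested, with a median of 0.45, and *Bcl2* stood at 86.2 and 354 CPM against 52.1, 176, 131 and 140.

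B cells with and without IgD transcript were compared within libraries, since mature follicular B cells carry IgD and the rule did not use it. After thinning to 1000 UMIs, 3 libraries had at least 10 cells on either side. These were metastasis replicate 4, with 21 cells with and 13 without an *Ighd* UMI, lung replicate 4, with 69 and 95, and lung replicate 6, with 54 and 211. A cell without a UMI at this depth may still express the gene. The library was a block in the fit, and *Ighd* itself was left out. The fit rests on these 3 libraries and shares variance across genes. The SE, taken from the log2 difference and the test statistic, and the p-value can therefore be small where the libraries disagree.

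Of 960 genes tested, 14 were called, which is 1.46%, with 4 higher and 10 lower in cells with *Ighd* (0.417% and 1.04%; edgeR quasi-likelihood test with Benjamini-Hochberg adjustment). The 4 that were higher were *H2-Eb1*, *Mef2c*, *Irf2* and *Crlf3*. *Mef2c*, a transcription factor needed for B cell responses, had 43 and 14 UMIs in cells with and without *Ighd* in metastasis replicate 4, 92 and 84 in lung replicate 4 and 32 and 65 in lung replicate 6. Its log2 difference was 0.72 (SE 0.20, adjusted p = 0.0349, edgeR), with the same sign in all 3 libraries. *Crlf3*, a cytokine receptor-like gene, differed by 1.27 (SE 0.30, adjusted p = 0.0073, edgeR). *Irf2*, an interferon regulatory factor, differed by 1.03 (SE 0.29, adjusted p = 0.0349, edgeR). With 4 of 5 markers required, none of the 4 was called and the differences of *Mef2c*, *Crlf3* and *Irf2* were 0.14, 0.29 and 0.19, and with all 5 markers *Irf2* turned to -0.60.

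*H2-Eb1*, whose Y box promoter is printed above, had 34 and 11 UMIs in metastasis replicate 4, 152 and 99 in lung replicate 4 and 43 and 136 in lung replicate 6. Relative to the total, it was higher with *Ighd* in each of the 3, by log2 0.93, 1.07 and 0.30, and by 0.71 over all (SE 0.19, adjusted p = 0.0349, edgeR). With 4 of 5 markers required it differed by 0.55 and with all 5 by 0.06, neither called. All 8 MHC class II genes tested had a positive difference, 1 of them called, with a median of 0.60 beside 0.01 over all genes tested. *H2-Aa* differed by 0.45 and *Ciita* by 0.77, neither called. Of the 16 identity genes tested, 12 were positive with a median of 0.22 and 0 were called.

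Of the 10 that were lower, *Lyz2* was in the macrophage list, *Scgb1a1* in the club cell list, *Plac8* in the marginal zone and B-1 list and *Igha* in the immunoglobulin list, and the other 6 were in no list. *Lyz2*, the lysozyme of macrophages, had 22 UMIs with and 320 without *Ighd* in lung replicate 4 and 151 and 899 in lung replicate 6, and 3 and 1 in metastasis replicate 4. Its log2 difference was -1.67 (SE 0.24, adjusted p = 1.8e-07, edgeR). The libraries disagreed, at -3.36, -0.61 and 0.81 in the same order. *Scgb1a1* of club cells differed by -2.44 (SE 0.31, adjusted p = 3.4e-09, edgeR), from 171 and 4304 UMIs in lung replicate 6, and without that library it turned to 0.61. Its log2 ratio was -2.68 in lung replicate 6, 1.29 in lung replicate 4 and 0.44 in metastasis replicate 4. *Igha* differed by -2.37 (SE 0.50, adjusted p = 0.0018, edgeR), with 2 and 48 UMIs in lung replicate 4, 3 and 40 in lung replicate 6 and 4 and 1 in metastasis replicate 4. Few cells carried it, since before thinning 425 of the 427 *Igha* UMIs of lung replicate 4 lay in the single cell with *Jchain* described above and 3 cells of lung replicate 6 held 5 or more UMIs each. *Plac8*, *Tyrobp*, *Cst3*, *Psap*, *Cyba*, *Sat1* and *Ifitm3* differed by -0.75 to -1.23. *Ifitm3*, at -1.23, had 5 and 65 UMIs in lung replicate 4 but 19 and 74 in lung replicate 6, where the log2 ratio was 0.0046, and 4 and 1 in metastasis replicate 4. Cells that met only 3 markers carried macrophage RNA in lung replicates 4 and 6, as given above. In lung replicate 6 the cells with 4 markers did as well, at 76.8 macrophage UMIs per 10000. With 4 of 5 markers required, 1 gene was called, *Scgb1a1*, and with all 5 markers 2 were called. DESeq2 called 0, with 12 under 0.05 unadjusted, and without thinning edgeR called 0, with 568. Leaving out lung replicate 6, lung replicate 4 or metastasis replicate 4 gave 1, 6 and 32 calls.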

How the data were processed

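The authors aligned the 10x libraries to GRCm38 with Cell Ranger 6.1.1 and removed cells by quantile limits, using Seurat 3.2.2 per the labels and the study's methods. The table they deposited holds UMI counts per gene and cell, not normalized, and percent values of mitochondrial and ribosomal UMIs deposited beside it were used as descriptions. Their log-normalized table was not used. Library names with identical cells were merged. Names that show the group but no matching replicate number were used by group alone, and 0 sample columns were left unassigned.

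Members, gene lists and tests were chosen with earlier results of these data known. Percents given as after thinning and the *Ighd* split used cells thinned to 1000 UMIs without replacement, leaving out shallower cells. All other counts and percents of cells with a UMI used unthinned cells. The median depth of B cells ran from 1616.5 UMIs in lung replicate 6 to 4087 in lung replicate 4, so these are not matched for depth. UMIs of the B cells were added up in each library that held 10 or more of them, and these sums were fitted with edgeR 4.0.16 (expression filter, TMM, quasi-likelihood test, Benjamini-Hochberg adjustment over all genes tested, called at an adjusted p under 0.05). The *Ighd* split had the library as a block. DESeq2 1.42.0 was an alternative. Shares were compared by exact two-sided permutation of libraries, and intervals are exact (Clopper-Pearson) at 95%. The fits were tested on simulated data with 200 genes changed.

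Genes named were those of the lists, as groups, the 8 called genes with the largest change per direction at a mean of 20 CPM or more (between tissues, also without overlap), the 5 most counted variable genes with ties and the 15 with the highest ratio to other cells. List genes given with values outside these rules were chosen after their values were seen. R 4.3.3, Python 3.11.15, numpy 2.4.6, scipy 1.17.1, pandas 2.3.3 and matplotlib 3.10.9 were used.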

Additional observations from a re-analysis of the deposited data

Results flagged for a closer look

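In groups of 4 libraries, 36 sets of values were screened for a library far from the other 3, and 8 were flagged, where chance flags about 1 in 20. Among primary tumors, replicate 1-3 held B cells at 0.599% of cells and the others 0. With 3 values at 0 any other value is flagged, and the 0 of replicate 5 allows up to 0.990%. Among unchallenged lungs, replicate 6 was far above the others in RNA of other cell types held by its B cells, per 10000 UMIs. There, the club cell list stood at 248 against 0.0995 to 28.7, the ciliated cell list at 13.9 against 0.455 to 1.19, the endothelial list at 4.51 against 0.521 to 0.715 and the fibroblast list at 1.73 against 0.185 to 0.357. The melanoma list stood at 0.0708 in that library, from 4 UMIs, against 0, where again any value above 0 is flagged. The B cell precursor list stood at 8.22 in lung replicate 5 against 0 to 1.08, from the cell with *Vpreb1*, *Igll1* and *Rag1* described above. The red blood cell list stood at 1419 in lung run 1 against 0 to 0.981.

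For 5 of the 14 genes called in the *Ighd* split, the difference between B cells with and without *Ighd* had a positive sign in metastasis replicate 4 and a negative one in both lung libraries. On the log2 scale it was 1.21 against -3.72 and -1.61 for *Igha*, 0.28 against -1.54 and -0.70 for *Plac8*, 0.81 against -3.36 and -0.61 for *Lyz2*, 2.53 against -1.63 and -0.45 for *Tyrobp* and 0.87 against -1.34 and -0.53 for *Cyba*. The values of the metastasis library rest on few UMIs, with and without *Ighd* 4 and 1 for *Igha*, 2 and 1 for *Plac8*, 3 and 1 for *Lyz2*, 1 and 0 for *Tyrobp* and 9 and 3 for *Cyba*, and with a pseudocount of 10 CPM their size cannot be read from so few. This is 1 metastasis library, and the difference between tissues was not tested.

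B cells also appeared in a library that entered no comparison. Of 638 cells sorted as melanoma cells from metastasis replicate 4, 35 met the B cell rule, with 97.0 identity UMIs per 10000. In that library 29.0% of cells had a *Ptprc* UMI and 96.1% a *Dct* UMI.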

How the results depend on the processing

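Between metastasis and unchallenged lung, edgeR called 1 gene and also 1 with the run of the library name as replicate block, with DESeq2 or its size factors, with 4 of 5 markers, without immunoglobulin genes and, added after seeing the data, without globin genes. With no filter on low counts it called 38, of 15603 tested, and with at least 20 B cells per library 2, from a single metastasis library assumed to vary like the lungs. Leaving out a library gave 0 to 1. The *Ighd* split, with 14 calls, gave 46 when thinned to 2000 UMIs, 0 without thinning or with DESeq2, 9 with no filter and 1 with 4 of 5 markers. Chosen after seeing the data, 5 of 5 markers gave 2 and keeping cells with *Pecam1* gave 1. Leaving out a library gave 1 to 32. Single genes turned for *Irf2* (-0.60) and *Cyba* (0.068) with 5 of 5 markers, and for *Scgb1a1*, at -2.77 to 0.61 over left-out libraries. The B cell share among lymphocytes, at a difference of -4.49 points (metastasis minus lung), was 1.48 as a share of all cells, 0.283 with 4 of 5 markers and -11.7 to 4.82 over left-out libraries. The share of all cells used the same libraries. It left out metastasis replicates 5 and 6, at 0% and 0.0965%, and lung run 1, at 0.830%. The lambda difference of 10.6 points was -14.7 under the stricter light chain rule and 7.32 to 13.9 over left-out libraries. The cause of these moves was not tested. Among list medians, 204 values moved by less than the spread and 27 by more. The low number of B cells, 13 and 34 in the metastasis libraries, limits each comparison of tissues. Contrasts with primary tumor were not run, with 4 B cells in 1 library.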
